A study of Homo sapiens with 12 samples.

Results

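The comparison described here is miR-130a against miR-203 in LNCaP cells, a prostate cancer cell line whose growth depends on androgen. Its members are 6 of the 12 expression arrays of the study, chosen by their labels: 3 from cells transfected with miR-130a and 3 from cells transfected with miR-203. The 3 scramble arrays, from cells transfected with a microRNA of scrambled sequence, serve to show on which side a gene moved. The 3 miR-205 arrays are not compared. Scramble and miR-205 arrays also enter the estimate of the spread and the choice of probe sets and tested genes. All groups therefore share the cell line and the transfection. The arrays of a group are labelled as biological replicates, so each p-value is set against the spread among these cultures, whose number limits the precision. The labels name no dose, time after transfection, microRNA arm or carrier, and a single cell line stands for prostate cancer cells.

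Of 22277 probe sets, 19070 carried exactly 1 gene symbol and represented 11963 genes, each by the probe set with the highest mean over the 12 arrays. Tests were made on the 6821 genes whose level exceeded the median of the array on 3 or more of the 12 arrays. Levels are log2 expression values as deposited, differences are log2 values of miR-130a minus miR-203, given ± their standard error (SE), and a gene passed when its p from limma, adjusted by Benjamini-Hochberg over all 6821 genes, was under 0.05.

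MicroRNAs are short RNAs that guide Argonaute proteins to messenger RNAs, mostly by pairing of the seed, bases 2 to 8 of the mature microRNA, with sites in the 3′ untranslated region, which lowers the stability and translation of the message. miR-203 is abundant in stratified epithelium, where in mouse skin it restrains the proliferation of progenitor cells, and miR-130a belongs to a family of microRNAs with 1 common seed. Cells also sense double-stranded RNA through RIG-I, MDA5 and other receptors, which induce interferon beta. Secreted interferon then acts through Janus kinases (JAK) and STAT transcription factors on a set of antiviral genes.

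The mature sequence of miR-203 is shown with its seed in capitals because the seed defines the messages it can pair with. The sequence is that of RefSeq on GRCh38.p14 (chr14:104117469-104117490, + strand), and the mature form of miR-130a-3p is named only.
hsa-miR-203a-3p: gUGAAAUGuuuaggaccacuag

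Promoters of 4 genes are shown next, chosen among those with a match to the letters searched. Their lists had most tested members higher with miR-130a. Each runs from 250 bases before to 50 bases after a transcription start in RefSeq (GRCh38.p14). Capitals mark letters searched on both strands: GAAANNGAA, the core of the interferon-stimulated response element, in IFIT3 (chr10:89327747-89328046 and chr10:89332279-89332578, both + strand) and CXCL10 (chr4:76023448-76023747, - strand). In MCM2 (chr3:127598161-127598460, + strand) they mark the E2F letters TTTCGCGC or TTTGGCGC, and in HMMR (chr5:163460382-163460681, + strand) the cell cycle homology letters TTTGAA.
IFIT3, first start: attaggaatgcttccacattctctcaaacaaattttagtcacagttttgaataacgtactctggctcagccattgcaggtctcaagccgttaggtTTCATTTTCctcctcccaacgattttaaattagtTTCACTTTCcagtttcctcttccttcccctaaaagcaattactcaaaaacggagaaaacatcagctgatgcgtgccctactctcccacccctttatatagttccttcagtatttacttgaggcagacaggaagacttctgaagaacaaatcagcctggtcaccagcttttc
IFIT3, second start: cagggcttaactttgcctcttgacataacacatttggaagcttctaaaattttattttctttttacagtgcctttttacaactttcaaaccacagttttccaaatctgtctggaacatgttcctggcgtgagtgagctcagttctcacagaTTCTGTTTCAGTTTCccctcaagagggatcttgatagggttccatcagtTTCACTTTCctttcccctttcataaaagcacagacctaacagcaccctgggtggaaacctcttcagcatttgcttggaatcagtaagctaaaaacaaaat
CXCL10: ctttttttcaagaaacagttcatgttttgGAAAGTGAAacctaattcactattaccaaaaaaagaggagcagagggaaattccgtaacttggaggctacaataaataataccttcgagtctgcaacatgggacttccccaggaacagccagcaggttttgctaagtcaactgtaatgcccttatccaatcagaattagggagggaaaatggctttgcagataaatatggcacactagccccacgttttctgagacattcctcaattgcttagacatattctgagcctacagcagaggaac
MCM2: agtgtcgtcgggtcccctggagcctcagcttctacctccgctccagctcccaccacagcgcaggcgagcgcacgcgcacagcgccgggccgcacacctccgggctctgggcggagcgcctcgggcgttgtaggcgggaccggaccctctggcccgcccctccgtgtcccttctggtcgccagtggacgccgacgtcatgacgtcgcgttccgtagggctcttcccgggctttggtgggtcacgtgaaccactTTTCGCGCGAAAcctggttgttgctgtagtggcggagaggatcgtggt
HMMR: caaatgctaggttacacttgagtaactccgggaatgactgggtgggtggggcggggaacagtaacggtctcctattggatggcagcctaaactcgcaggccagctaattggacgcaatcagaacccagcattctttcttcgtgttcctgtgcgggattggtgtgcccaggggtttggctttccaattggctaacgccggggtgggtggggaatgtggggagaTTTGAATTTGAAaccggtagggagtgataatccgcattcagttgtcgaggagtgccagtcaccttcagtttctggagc

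A match in these windows is a description and not a binding site. The windows of CXCL11, RRM2 and KIF20A, with larger differences in the same lists, hold no match and are not printed. The interferon letters were found 155 and 121 bases before the first IFIT3 start, at 99, 93 and 50 bases before the second start, where the first 2 of the 3 overlap, and 221 bases before the CXCL10 start. The E2F letters began 2 and 6 bases after the MCM2 start, on both strands and overlapping, and the cell cycle letters 28 and 22 bases before the HMMR start. Over all 27305 genes of the promoter table, 9.86% had the interferon letters in at least 1 promoter, 1.4% the E2F letters and 18.2% the cell cycle letters. Over the tested genes with a listed promoter these shares were 8.91%, 2.68% and 13.4%.

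The arrays shared 1 scale, with medians between 2.76 and 2.78 and 29.6% to 31.6% of the probe sets at the lowest value of 2.36. No columns were identical. Arrays of miR-130a gave a Pearson r of 0.9966 to 0.9973 with each other, computed over genes, which are not independent replicates. The range was 0.9916 to 0.9959 within miR-203 and 0.968 to 0.978 between miR-130a and miR-203. The 3′ minus 5′ difference of the GAPDH probe sets, a sign of RNA quality, ranged from 0.72 to 0.74 on miR-130a arrays, from 0.74 to 0.80 on miR-203 arrays and from 0.56 to 0.90 on scramble arrays. For ACTB it ranged from 2.18 to 2.33, from 2.18 to 2.54 and from 2.30 to 2.66 on the arrays of miR-130a, miR-203 and scramble. All 8 luminal prostate markers on the arrays were above the array median on all 9 arrays of these 3 groups. Of the markers of other cell types, 5 of 6 basal, 6 of 7 neuroendocrine, 6 of 10 fibroblast and smooth muscle, and all 11 leukocyte and endothelial genes were above it on none of the 9 arrays. The smooth muscle marker ACTA2 was above it on all 9 and measured 4.03, 3.99 and 4.19 with miR-130a, 3.30, 3.38 and 3.23 with miR-203 and 3.53, 3.73 and 3.65 with scramble, a difference of 0.77 ± 0.11, adjusted p = 0.000164 (0.38 as the mean of its probe sets).

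Between miR-130a and miR-203, 2807 of 6821 genes (41.2%) passed, 1437 (21.1%) higher and 1370 (20.1%) lower with miR-130a. These shares are the reference for the list counts below. The larger differences lay mostly on the higher side: of 267 genes (3.91%) that passed with at least a 2-fold difference, 223 were higher and 44 lower with miR-130a. Differences ran from -2.10, for the splicing regulator PTBP2, to 4.69, for the chemokine CXCL11, and the median over all tested genes was -0.02. For 3606 genes (52.9%) no array of miR-130a lay within the range of miR-203 or the reverse, and 2711 of these passed. With 3 arrays against 3, an exact permutation test of a single gene cannot give p under 0.1, so all tests rest on the shared fit.

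**Figure D1:**
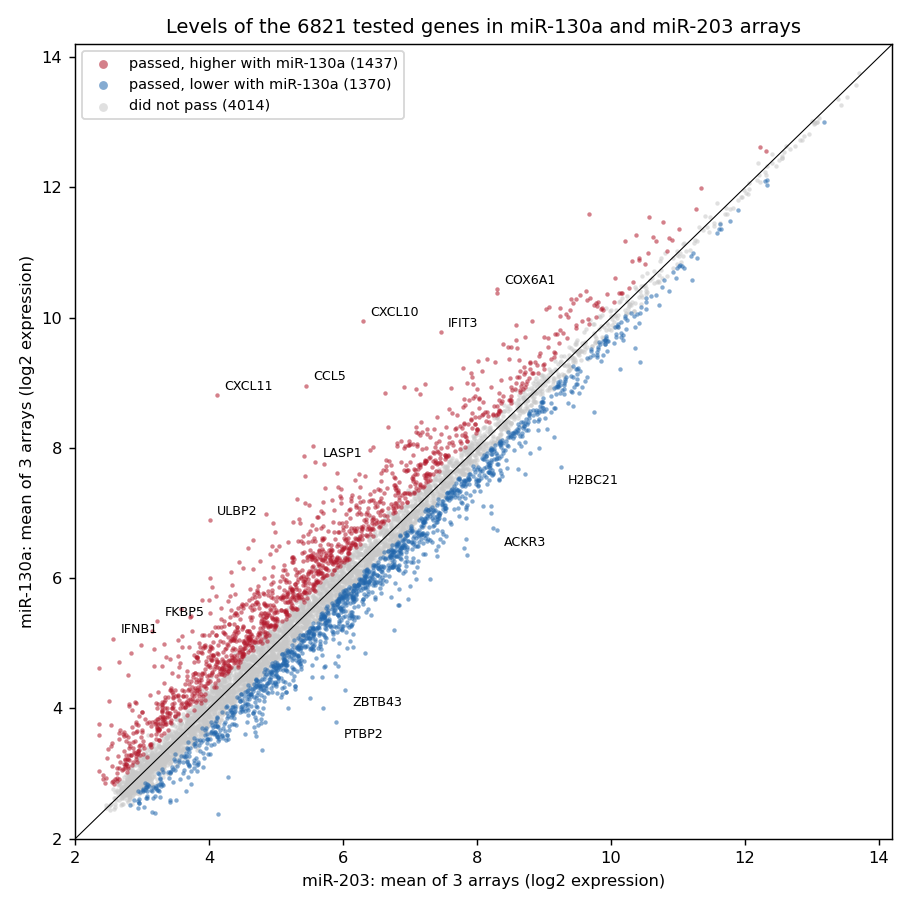
Mean log2 expression of each of the 6821 tested genes over 3 miR-130a arrays (vertical axis) and 3 miR-203 arrays (horizontal axis). Points on the line have equal means; red points (1437) passed and were higher with miR-130a, blue points (1370) passed and were lower, and the genes farthest above the line are CXCL11, CXCL10 and CCL5.

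Against scramble, 1610 genes (23.6%) passed with miR-130a, 100 of them (1.47%) with at least a 2-fold difference, and 2466 (36.2%) with miR-203, 172 of them (2.52%) at least 2-fold. These comparisons share the scramble arrays with each other and the microRNA arrays with the direct comparison. The position of the 3 scramble arrays therefore describes a gene without a further test. Among the 2807 genes that passed between the microRNAs, the scramble arrays overlapped the miR-130a arrays alone for 1026 (36.6%) and the miR-203 arrays alone for 641 (22.8%). They lay between both groups for 498 genes (17.7%), below both for 180 (6.41%), above both for 167 (5.95%), and overlapped both for 295 (10.5%). Over all 6821 tested genes the same shares were 22.1%, 17.1%, 7.34%, 7.15%, 7.62% and 38.7%.

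**Figure D2:**
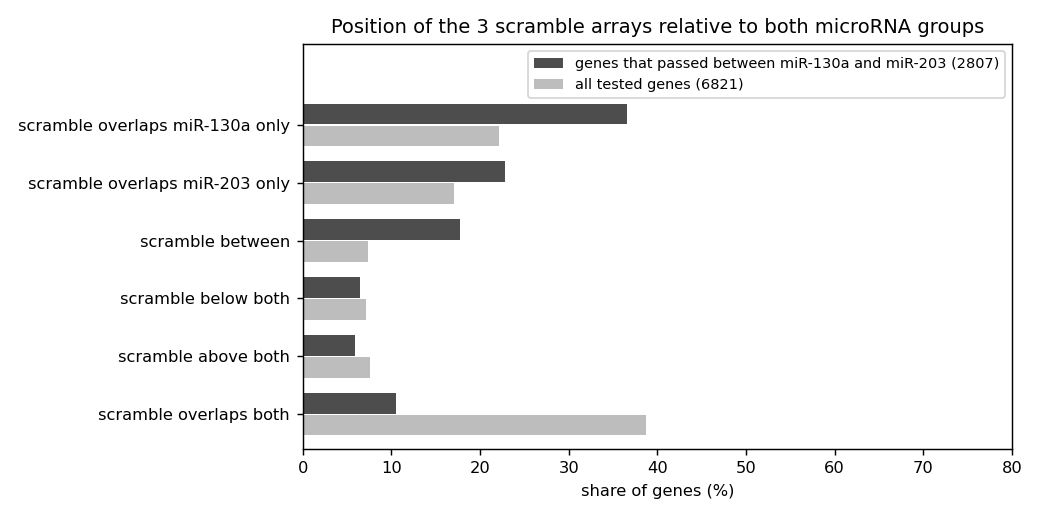
Share of genes (%, horizontal axis) by the position of the 3 scramble arrays relative to the 3 miR-130a and 3 miR-203 arrays. Dark bars show the 2807 genes that passed between miR-130a and miR-203 and light bars all 6821 tested genes; overlap with miR-130a alone was the most frequent position among the genes that passed (36.6%).

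Interferon-induced antiviral genes were higher with miR-130a. Of 39 members on the arrays 35 were tested, 30 were higher, 0 were lower and 5 did not pass, against 21.1% of all tested genes higher and 20.1% lower. The median difference was 0.98, and medians against scramble were 1.56 with miR-130a and 0.59 with miR-203. For 27 of the 35 genes all scramble arrays lay below the arrays of both microRNAs, against 7.15% of all tested genes. A member could enter the test through bright values in 1 group alone, so these counts describe the genes that passed the brightness filter.

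IFIT3, which acts with the RNA-binding IFIT proteins against viral messages, measured 9.68, 9.97 and 9.66 with miR-130a, 7.74, 7.31 and 7.32 with miR-203 and 3.04, 2.99 and 3.17 with scramble. All 3 groups were apart, in the order miR-130a, miR-203 and scramble. The difference between the microRNAs was 2.32 ± 0.12, adjusted p = 2.72e-08. IFIT2, of the same family, measured 8.93, 8.89 and 8.72 with miR-130a, 7.08, 6.41 and 6.39 with miR-203 and 2.85, 2.64 and 2.86 with scramble (2.23 ± 0.16, adjusted p = 3.15e-07). RSAD2, viperin, an enzyme that makes a chain-terminating nucleotide, measured 8.11, 8.15 and 7.82 with miR-130a, 5.58, 5.76 and 5.30 with miR-203 and 2.61, 2.36 and 2.68 with scramble, and differed by 2.48 ± 0.13, adjusted p = 2.72e-08. For both, no array of 1 group reached another group, and RSAD2 was dim on all 3 scramble arrays. OASL, of the oligoadenylate synthetase family, differed by 2.08 ± 0.13, adjusted p = 9.56e-08. Over the 35 tested members the mean level was 6.34, 6.47 and 6.31 with miR-130a, 5.26, 5.30 and 5.24 with miR-203 and 3.99, 3.95 and 3.97 with scramble. In the promoter table, 24 of the 29 members found there (82.8%) had the interferon letters, against 8.91% of all tested genes.

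The same order of groups was seen in chemokine genes. Of 25 chemokine and cytokine genes on the arrays only 6 were tested, of which 4 were higher with miR-130a and 2 did not pass. Without the brightness filter 5 of all 25 were higher and the median difference was 0. CXCL11 (on chromosome 4), a ligand of the receptor CXCR3, measured 8.87, 8.85 and 8.71 with miR-130a, 4.35, 3.66 and 4.35 with miR-203 and 2.43, 2.36 and 2.43 with scramble. It was the largest difference of all tested genes, 4.69 ± 0.14, adjusted p = 3.16e-10, and its 2 probe sets differed by 4.47 and 4.69. CXCL10, a ligand of the same receptor, measured 9.995, 9.96 and 9.89 with miR-130a, 6.28, 6.57 and 6.05 with miR-203 and 2.36, 2.61 and 2.60 with scramble. CCL5, a chemokine that attracts T cells, measured 8.95, 9.05 and 8.87 with miR-130a, 5.59, 5.34 and 5.42 with miR-203 and 2.38, 2.36 and 2.39 with scramble. Both were apart in all 3 groups and dim on every scramble array, with differences of 3.65 ± 0.12, adjusted p = 3.3e-10 and 3.51 ± 0.08, adjusted p = 1.26e-11 between the microRNAs. The CXCL10 window printed above has 1 match to the interferon letters, while the window of CXCL11 on the same chromosome holds none of these letters. TNFSF10, the death ligand TRAIL, differed by 2.05 ± 0.17, adjusted p = 1.19e-06, a value that was 1.33 as the mean over its 3 probe sets.

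Of 18 genes for viral RNA sensors, adaptors and interferons on the arrays 10 were tested, of which 5 were higher with miR-130a and 0 were lower. Their median was 0.34, while without the brightness filter 5 of all 18 were higher and the median was 0.00074. IFNB1, interferon beta, measured 5.28, 5.06 and 4.87 with miR-130a, 2.74, 2.47 and 2.49 with miR-203 and 2.36, 2.37 and 2.37 with scramble. It was above the array median on all miR-130a arrays and on no miR-203 or scramble array, so it is given as a bound, at least 4.94-fold higher with miR-130a than with miR-203 (adjusted p = 3.75e-09). RIGI, the sensor RIG-I, measured 7.93, 7.91 and 7.80 with miR-130a, 5.68, 5.10 and 5.47 with miR-203 and 2.71, 2.66 and 2.66 with scramble, and the groups did not overlap (2.46 ± 0.13, adjusted p = 2.72e-08). IFIH1, the sensor MDA5, showed a smaller gap of 0.93 ± 0.19, adjusted p = 0.00141: its miR-130a arrays lay at 6.998 to 7.37, its miR-203 arrays at 5.99 to 6.57 and its scramble arrays at 4.03 to 4.22. MYD88, the adaptor of Toll-like and interleukin-1 receptors, measured 7.01, 6.92 and 6.79 with miR-130a, 5.11, 5.65 and 5.25 with miR-203 and 6.37, 6.41 and 6.23 with scramble. Here the scramble arrays lay between the microRNAs, unlike those of RIGI and IFIH1, and the difference was 1.57 ± 0.12, adjusted p = 8.25e-07.

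Of 15 tested interferon receptor, JAK-STAT and interferon regulatory factor genes, 8 were higher with miR-130a and 3 were lower. IRF9, the DNA-binding subunit of the interferon-activated factor, measured 5.89, 5.96 and 5.82 with miR-130a, 4.38, 4.23 and 4.41 with miR-203 and 3.26, 3.01 and 3.32 with scramble, with a difference of 1.55 ± 0.10, adjusted p = 1.85e-07. IRF7, which amplifies interferon production, differed by 1.05 ± 0.10, adjusted p = 4.05e-06, and JAK2, a Janus kinase, by 1.01 ± 0.21, adjusted p = 0.00191. SOCS2, a feedback inhibitor of JAK-STAT signalling, differed by 0.78 ± 0.10, adjusted p = 3.91e-05 (0.45 as the mean of its probe sets), its scramble arrays being above the miR-203 arrays.

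Among 15 tested NF-kB genes 4 were higher and 1 was lower, where 21.1% of all tested genes were higher and 20.1% lower. TNFAIP3, the inhibitory enzyme A20, measured 4.80, 4.47 and 4.29 with miR-130a, 2.80, 2.62 and 2.96 with miR-203 and 2.51, 2.54 and 2.41 with scramble. Every miR-130a array was above every other array, and the difference was 1.73 ± 0.12, adjusted p = 2.53e-07. NFKBIA, the inhibitor of NF-kB that the factor itself induces, differed by 0.86 ± 0.11, adjusted p = 4.42e-05, and TNFAIP8 by 1.10 ± 0.10, adjusted p = 2.34e-06. NFKBIE, another inhibitor, differed by 0.42 ± 0.12, adjusted p = 0.0143, a call that was lost in 5 alternatives, with adjusted p up to 0.0710.

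Of 16 tested class I presentation and immunoproteasome genes 4 were higher, 1 was lower and 11 did not pass. This is 31.2% passing, against 41.2% of all tested genes. ULBP2, a stress ligand recognised by the natural killer cell receptor NKG2D, measured 7.08, 6.83 and 6.76 with miR-130a, 4.28, 3.80 and 3.96 with miR-203 and 2.74, 2.65 and 2.65 with scramble. The 3 groups were apart, with a difference of 2.88 ± 0.11, adjusted p = 3.75e-09 between the microRNAs. PDIA3, a disulfide isomerase of the peptide-loading complex, differed by 1.10 ± 0.09, adjusted p = 1.14e-06 and was higher on all scramble arrays than on any microRNA array. The immunoproteasome subunits PSMB9 and PSMB10 went opposite ways: PSMB9 was at least 1.21-fold higher with miR-130a (adjusted p = 1.36e-05, dim on all miR-203 arrays) and PSMB10 differed by -0.54 ± 0.13, adjusted p = 0.00495.

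Death receptor, caspase and BCL2 family genes had no common direction, with 5 of 21 higher, 4 lower and a median of 0.01. The 42.9% that passed were near the 41.2% of all tested genes. PMAIP1, the BH3-only protein NOXA, measured 9.43, 9.35 and 9.24 with miR-130a, 8.23, 7.78 and 8.04 with miR-203 and 7.06, 6.90 and 7.16 with scramble and was apart in all 3 groups (1.33 ± 0.12, adjusted p = 2.32e-06). TNFRSF10B, a receptor of TRAIL, differed by 1.24 ± 0.07, adjusted p = 8.01e-08. The antiapoptotic BCL2L1 was likewise higher, by 1.25 ± 0.12, adjusted p = 4.62e-06. BNIP3L, a mitophagy receptor, differed by 1.06 ± 0.10, adjusted p = 3.37e-06, but its 2 probe sets gave -0.17 and 1.06 and their mean 0.45.

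**Figure D3:**
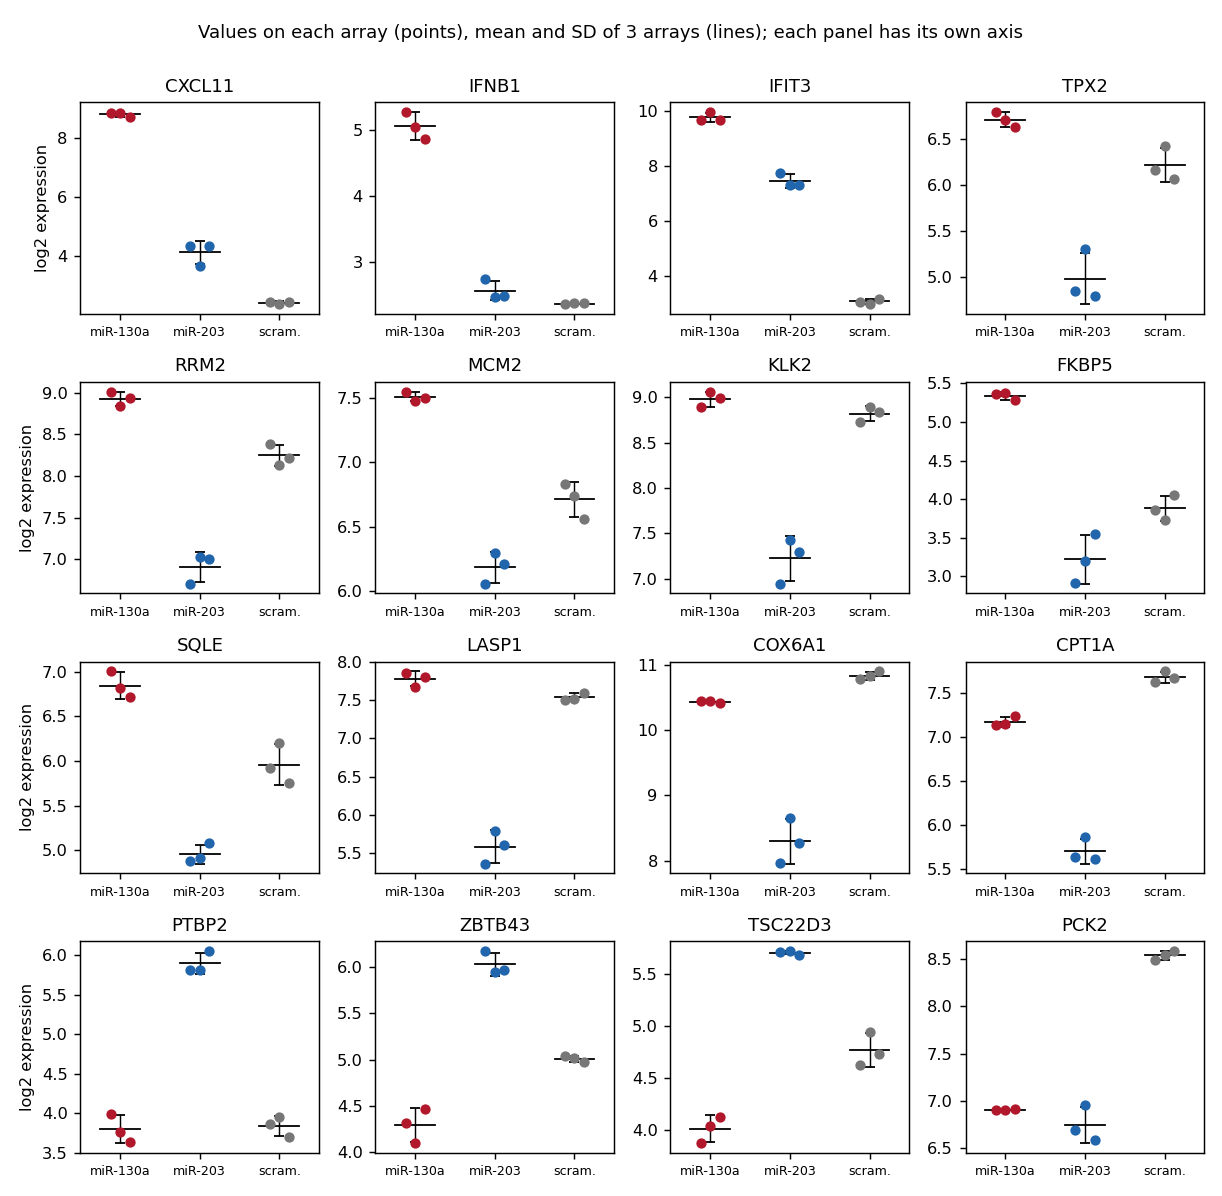
Log2 expression on each array (points) with the mean and SD of 3 arrays (lines) for 16 genes, in the order miR-130a (red), miR-203 (blue) and scramble (grey). Each panel has its own axis; the miR-130a points lie above the miR-203 points in 12 of the panels, the reverse holds for PTBP2, ZBTB43 and TSC22D3, and the groups overlap for PCK2.

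Genes of cell division were at a higher level with miR-130a. Among 42 tested mitosis and spindle genes 40 were higher, 0 were lower and 2 did not pass, with a median of 0.98. For 25 of the 42 the scramble arrays lay between both groups, against 7.34% of all tested genes. The medians against scramble were 0.46 with miR-130a and -0.50 with miR-203. With scramble as reference 16 rose and 0 fell with miR-130a (12% of all tested genes rose and 11.6% fell), while 0 rose and 25 fell with miR-203 (17.3% rose and 18.9% fell).

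TPX2 (on chromosome 20), which activates the kinase Aurora A on the spindle, measured 6.80, 6.71 and 6.63 with miR-130a, 4.85, 5.30 and 4.80 with miR-203 and 6.17, 6.42 and 6.07 with scramble. The groups were apart in the order miR-130a, scramble, miR-203, and the difference between the microRNAs was 1.73 ± 0.16, adjusted p = 2.41e-06. KIF20A, a kinesin of cytokinesis, measured 6.11, 6.28 and 6.07 with miR-130a, 4.14, 4.83 and 4.53 with miR-203 and 5.24, 5.30 and 5.08 with scramble, with the same order and a difference of 1.65 ± 0.16, adjusted p = 5.11e-06. HMMR, a spindle and hyaluronan-binding protein, differed by 1.57 ± 0.17, adjusted p = 1.03e-05, and ASPM, which acts at spindle poles, by 1.52 ± 0.23, adjusted p = 0.000196. MKI67, the proliferation marker, measured 4.28, 4.45 and 4.60 with miR-130a, 3.72, 3.54 and 3.74 with miR-203 and 4.09, 4.21 and 4.42 with scramble, and its miR-203 arrays lay below all others (0.78 ± 0.11, adjusted p = 7.36e-05).

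Over the 42 genes the mean level was 6.12, 6.13 and 6.14 with miR-130a, 4.83, 5.38 and 5.25 with miR-203 and 5.74, 5.77 and 5.55 with scramble. The first miR-203 array lay below its 2 replicates. Without it 38 of 42 genes were higher, 0 were lower and the median was 0.84. Of the members with a listed promoter, 25 of 34 (73.5%) had the cell cycle letters TTTGAA, against 13.4% of all tested genes. HMMR, printed above, has them side by side, the KIF20A window holds no such letters, and TPX2 had no entry.

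DNA replication genes followed the same order. Of 40 tested, 35 were higher with miR-130a, 0 were lower and the median was 0.81. Against scramble 18 rose and 0 fell with miR-130a (12% and 11.6% of all tested genes), while 0 rose and 25 fell with miR-203 (17.3% and 18.9%). RRM2, a subunit of ribonucleotide reductase, which makes deoxynucleotides, measured 9.01, 8.84 and 8.94 with miR-130a, 6.70, 7.02 and 7.003 with miR-203 and 8.39, 8.14 and 8.22 with scramble. The scramble arrays lay between the microRNAs, which differed by 2.02 ± 0.15, adjusted p = 3.87e-07. MCM2, a subunit of the replicative helicase, measured 7.55, 7.48 and 7.50 with miR-130a, 6.05, 6.29 and 6.21 with miR-203 and 6.83, 6.74 and 6.56 with scramble, again with scramble between, and differed by 1.33 ± 0.10, adjusted p = 5.12e-07. GINS1 and GINS2, subunits of the complex that activates this helicase, differed by 1.30 ± 0.14, adjusted p = 9.48e-06 and by 1.45 ± 0.16, adjusted p = 1.03e-05. The E2F letters were found in 11 of 36 members (30.6%), MCM2 and GINS1 among them, against 2.68% of all tested genes, and in neither promoter of RRM2.

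Genes of the G1 phase went both ways, with more of them higher with miR-130a. Of 25 tested G1 cyclins, kinases, inhibitors and E2F and RB family members, 10 were higher, 3 were lower and 12 did not pass, with a median of 0.10. Among all tested genes 21.1% were higher and 20.1% lower. Higher ones included CDC25A, a phosphatase that activates cyclin-dependent kinases (1.08 ± 0.08, adjusted p = 7.27e-07, and 0.68 as the mean of its probe sets), and MYBL2, a transcription factor of proliferating cells (1.02 ± 0.10, adjusted p = 3.68e-06). SKP2, a ubiquitin ligase subunit that targets the inhibitor p27, differed by 1.20 ± 0.13, adjusted p = 1.59e-05, with 0.34 and 1.20 for 2 bright probe sets and 0.55 as the mean of its 3. CCNE2, cyclin E2, differed by 0.97 ± 0.23, adjusted p = 0.00436, which was 0.65 without the first miR-203 array. CDKN1A, the inhibitor p21, measured 8.93, 9.08 and 8.93 with miR-130a, 9.64, 9.42 and 9.37 with miR-203 and 9.19, 8.73 and 9.14 with scramble. All miR-203 arrays were above the others, and the difference was -0.50 ± 0.12, adjusted p = 0.00391. CCND1, cyclin D1, differed by 0.05 ± 0.10, adjusted p = 0.711 (95% interval -0.16 to 0.26), and MYC, a transcription factor that drives growth, by -0.12 ± 0.10, adjusted p = 0.358 (95% interval -0.34 to 0.10), so neither passed.

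Of 21 tested DNA repair genes 12 were higher, 0 were lower and the median was 0.47. CHEK2, a checkpoint kinase, measured 4.83, 4.61 and 4.53 with miR-130a, 3.02, 3.25 and 3.25 with miR-203 and 3.34, 3.25 and 3.22 with scramble. Its scramble arrays overlapped the miR-203 arrays alone, and the difference was 1.48 ± 0.10, adjusted p = 2.2e-07. For BRCA1, a mediator of recombination, the scramble arrays overlapped the miR-130a arrays alone: levels were 5.12 to 5.21 with miR-130a, 3.88 to 4.45 with miR-203 and 4.76 to 5.19 with scramble (0.97 ± 0.15, adjusted p = 0.00022). RAD54B, a recombination motor, and FANCI, of the Fanconi pathway, differed by 0.98 ± 0.08, adjusted p = 6.45e-07 and 1.21 ± 0.16, adjusted p = 6.34e-05.

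**Figure D4:**
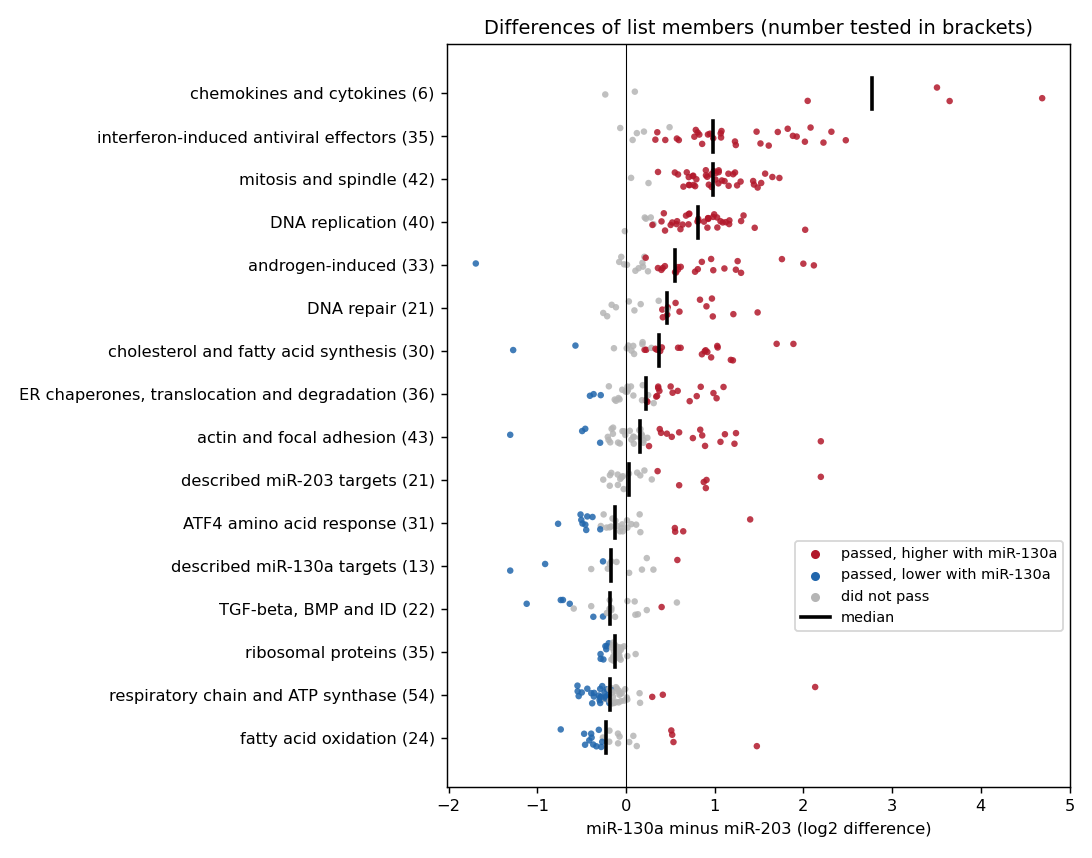
Log2 differences, miR-130a minus miR-203, of the tested members of 16 gene lists (points; dim members at their fitted value), with the list median (black bar). Interferon-induced, mitosis and replication genes lie mostly right of 0 with medians from 0.81 to 0.98, the chemokine points are the 6 of 25 genes that passed the brightness filter, and respiratory chain and fatty acid oxidation genes mostly left of it.

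Androgen-induced genes were higher with miR-130a than with miR-203. Of 33 tested, 22 were higher, 1 was lower and the median was 0.55. Against scramble 10 rose and 3 fell with miR-130a, and 2 rose and 19 fell with miR-203, with medians of 0.13 and -0.32. The shares over all tested genes were 12% and 11.6% with miR-130a, and 17.3% and 18.9% with miR-203. The mean over the list was 7.40, 7.41 and 7.36 with miR-130a, 6.80, 6.83 and 6.78 with miR-203 and 7.15, 7.23 and 7.16 with scramble.

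KLK2 (on chromosome 19), a prostate protease controlled by the androgen receptor, measured 8.89, 9.06 and 8.99 with miR-130a, 6.94, 7.43 and 7.29 with miR-203 and 8.73, 8.89 and 8.84 with scramble. Its miR-203 arrays stood far below the other 6, and the difference between the microRNAs was 1.76 ± 0.11, adjusted p = 1.05e-07. KLK3, which encodes prostate-specific antigen, measured 11.11, 11.24 and 11.17 with miR-130a, 10.14, 10.34 and 10.15 with miR-203 and 11.36, 11.48 and 11.50 with scramble. Here the miR-130a arrays lay between, below all scramble arrays and above all miR-203 arrays, with a difference of 0.96 ± 0.08, adjusted p = 9.13e-07. TMPRSS2, a membrane protease, differed by 1.24 ± 0.11, adjusted p = 2.8e-06. These 3 are also luminal markers, and of 8 tested markers 4 were higher and 1 was lower. The lower marker, ACP3, averaged 7.28 with miR-130a, 7.90 with miR-203 and 7.27 with scramble, so the markers did not share 1 direction. Their summed log2 level was 65.2 to 65.5 with miR-130a, 61.3 to 62.1 with miR-203 and 64.8 to 65.9 with scramble. In bulk RNA fewer cells of a type and less RNA per cell cannot be told apart, and the part of cell makeup in the androgen-induced genes was not tested. The smooth muscle marker ACTA2, given above, had the same order of groups as the list mean. It was the only 1 of 3 tested fibroblast and smooth muscle markers that passed, and 6 of the 10 on the arrays were dim throughout.

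FKBP5, a co-chaperone of steroid receptors, measured 5.36, 5.38 and 5.28 with miR-130a, 2.92, 3.20 and 3.55 with miR-203 and 3.86, 3.73 and 4.06 with scramble. The scramble arrays lay between the microRNAs, which differed by 2.12 ± 0.15, adjusted p = 3.05e-07. ELL2, a factor of transcription elongation, differed by 2.00 ± 0.17, adjusted p = 1.65e-06 (1.00 as the mean of its 2 probe sets). The exception in the list was TSC22D3, the glucocorticoid-induced leucine zipper protein, with 3.87, 4.03 and 4.12 with miR-130a, 5.71, 5.71 and 5.68 with miR-203 and 4.62, 4.94 and 4.73 with scramble. Its order was reversed, with miR-203 above scramble and scramble above miR-130a, and the difference was -1.69 ± 0.09, adjusted p = 2.72e-08; its other probe set gave -0.23 and the mean of both -0.96.

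Coregulators of the androgen receptor leaned the other way, with 6 of 30 higher, 12 lower and a median of -0.07. The lower count ran from 8 to 13 in the alternatives tried, with 8 without the first or the third miR-130a array. The higher count was 6 or 7. In this list 60% passed, against 41.2% of all tested genes. MED1, the Mediator subunit that binds nuclear receptors, measured 6.43, 6.50 and 6.39 with miR-130a, 7.52, 7.13 and 7.52 with miR-203 and 6.20, 5.69 and 6.20 with scramble. Every miR-203 array was above every other array, and the difference was -0.95 ± 0.14, adjusted p = 0.000152. NCOA2, a coactivator, differed by -0.80 ± 0.11, adjusted p = 6.44e-05 (-0.40 as the mean of its probe sets). TBL1XR1, of the NCoR corepressor complex, differed by -0.70 ± 0.13, adjusted p = 0.000833, with its scramble arrays above both microRNAs. CTBP2, a corepressor, differed by 0.85 ± 0.08, adjusted p = 3.29e-06.

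**Figure D5:**
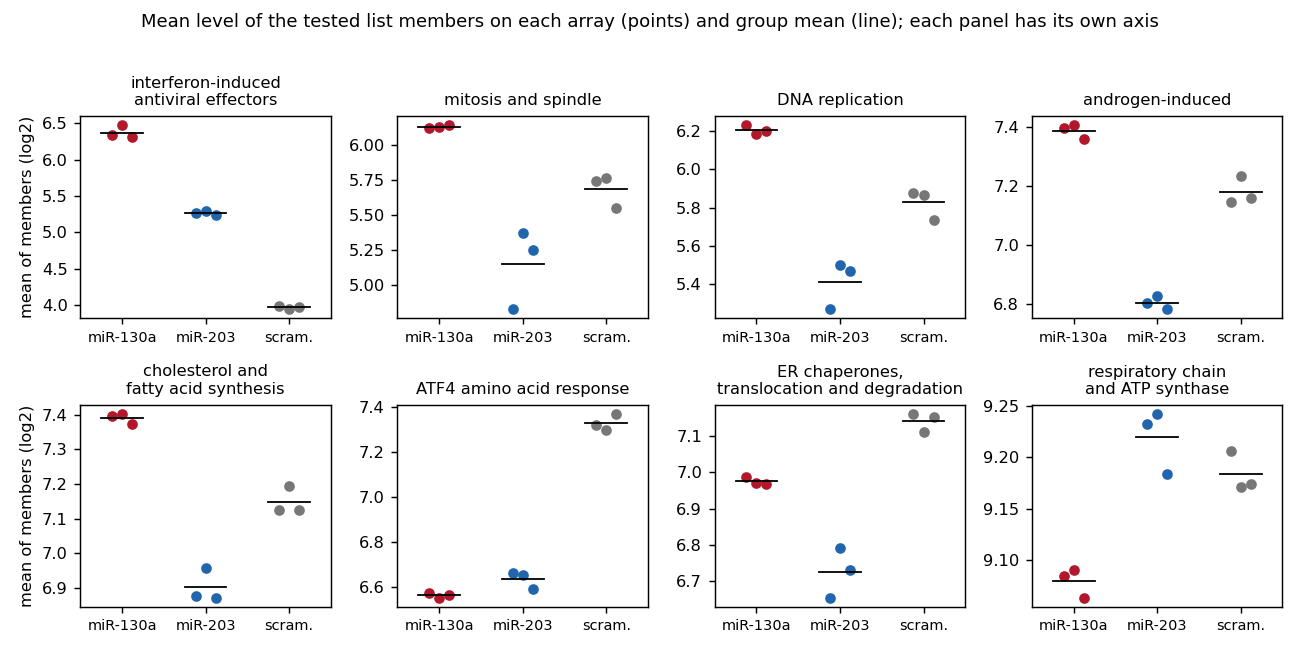
Mean log2 level of the tested members of 8 gene lists on each array (points) with the group mean (line), in the order miR-130a (red), miR-203 (blue) and scramble (grey). Each panel has its own axis; scramble lies lowest for interferon-induced genes, between both microRNAs for mitosis, replication, androgen-induced and lipid synthesis genes, and highest for ATF4 and ER genes.

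Genes of the amino acid response controlled by ATF4, a stress-induced transcription factor, were mostly lower than scramble with both microRNAs. Of 31 tested, 24 fell and 1 rose against scramble with miR-130a, and likewise 24 fell and 1 rose with miR-203. Over all tested genes 11.6% fell and 12% rose with miR-130a, and 18.9% fell and 17.3% rose with miR-203. For 23 of the 31 the scramble arrays lay above both groups, against 7.62% of all tested genes. Between the microRNAs 4 were higher, 9 were lower, 18 did not pass and the median was -0.12. The 41.9% that passed were near the 41.2% of all tested genes. The list mean was 6.57, 6.55 and 6.56 with miR-130a, 6.66, 6.65 and 6.59 with miR-203 and 7.32, 7.30 and 7.37 with scramble.

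PCK2, a mitochondrial enzyme of phosphoenolpyruvate synthesis, measured 6.90, 6.90 and 6.92 with miR-130a, 6.69, 6.96 and 6.59 with miR-203 and 8.49, 8.54 and 8.58 with scramble. The microRNA groups overlapped, both were well below scramble, and their difference was 0.16 ± 0.09, adjusted p = 0.151 with a 95% interval of -0.02 to 0.35. TRIB3, a pseudokinase that restrains this response, was likewise below scramble on all arrays of both microRNAs, which differed by 0.06 ± 0.11, adjusted p = 0.695, with a 95% interval of -0.18 to 0.30. SLC7A11, the cystine transporter, measured 6.65, 6.38 and 6.66 with miR-130a, 7.39, 7.39 and 7.20 with miR-203 and 8.21, 8.13 and 8.21 with scramble. It was lowest with miR-130a on every array and differed by -0.77 ± 0.09, adjusted p = 2.68e-05. SLC7A1, a carrier of cationic amino acids, went the other way with 7.33, 7.31 and 7.48 with miR-130a, 5.68, 6.21 and 6.03 with miR-203 and 7.90, 7.78 and 7.94 with scramble and a difference of 1.40 ± 0.12, adjusted p = 1.63e-06, but its probe sets ranged from 0.09 to 1.40 with a mean of 0.46. The transcription factors ATF3 and CEBPB differed by 0.65 ± 0.14, adjusted p = 0.00193 and 0.55 ± 0.08, adjusted p = 9.26e-05.

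Of 23 tested aminoacyl-tRNA synthetase genes 5 were higher and 8 were lower with miR-130a. This is 56.5% passing, against 41.2% of all tested genes. The cytosolic synthetases for histidine, tryptophan and alanine were higher: HARS1 by 1.17 ± 0.09, adjusted p = 5.26e-07, WARS1 by 1.12 ± 0.10, adjusted p = 2.21e-06 and AARS1 by 0.83 ± 0.09, adjusted p = 1.36e-05. The mitochondrial WARS2 was lower (-0.75 ± 0.10, adjusted p = 6.34e-05). AARS1 measured 8.59, 8.61 and 8.66 with miR-130a, 7.85, 7.94 and 7.58 with miR-203 and 9.16, 9.01 and 9.12 with scramble, so that scramble was highest, miR-203 lowest and no groups overlapped.

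In the endoplasmic reticulum list (chaperones, translocation and degradation) 17 of 36 genes were higher, 3 were lower and the median was 0.23. Scramble arrays overlapped the miR-130a arrays alone for 13 and lay above both groups for 14, against 22.1% and 7.62% of all tested genes. MANF, a stress-induced secreted factor, measured 7.82, 7.70 and 7.69 with miR-130a, 6.64, 6.84 and 6.66 with miR-203 and 8.01, 7.69 and 7.78 with scramble. SEC61B, a subunit of the translocon, measured 9.69, 9.70 and 9.70 with miR-130a, 8.53, 8.95 and 8.64 with miR-203 and 10.03, 9.83 and 9.96 with scramble. For both, the miR-203 arrays were the lowest, with differences of 1.02 ± 0.09, adjusted p = 1.77e-06 and 0.99 ± 0.10, adjusted p = 5.89e-06, and PDIA4, a disulfide isomerase, differed by 0.84 ± 0.09, adjusted p = 1.26e-05.

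Some genes were selected for passing against scramble with both microRNAs in the same direction while the 95% interval of the difference between the microRNAs lay within 0.5 log2 of 0. Both comparisons use the same 3 scramble arrays, so a deviation of those arrays enters both, and the values are a description. The gene farthest above scramble among them was CITED2, a transcriptional coregulator, with 7.42, 7.34 and 7.31 with miR-130a, 7.26, 7.26 and 7.36 with miR-203 and 5.97, 6.03 and 5.998 with scramble and an interval of -0.08 to 0.21 for the difference between the microRNAs. CDC37L1, a cochaperone of Hsp90, had an interval of -0.13 to 0.30, UGT2B15, which glucuronidates androgens, of -0.13 to 0.25, and IST1, an ESCRT-III-related protein, of -0.26 to 0.06. Among those below scramble, DIO3, which inactivates thyroid hormone, had an interval of -0.41 to 0.17 and PNPLA6, a phospholipase, of -0.34 to 0.18.

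Genes of cholesterol and fatty acid synthesis were mostly higher with miR-130a: 19 of 30 were higher, 2 were lower and the median was 0.37. Against scramble 11 rose and 4 fell with miR-130a, and 2 rose and 12 fell with miR-203. Of all tested genes 12% rose and 11.6% fell with miR-130a, and 17.3% rose and 18.9% fell with miR-203. SQLE, squalene epoxidase, measured 7.01, 6.81 and 6.72 with miR-130a, 4.88, 4.91 and 5.08 with miR-203 and 5.93, 6.21 and 5.75 with scramble. Scramble lay between the microRNAs, which differed by 1.89 ± 0.11, adjusted p = 8.3e-08. ACAT2, which makes acetoacetyl-CoA, differed by 1.70 ± 0.11, adjusted p = 1.09e-07, and MSMO1, a sterol oxidase, by 1.21 ± 0.08, adjusted p = 1.47e-07, and the scramble arrays of MSMO1 overlapped its miR-203 arrays alone. INSIG2, which holds back the sterol regulators of this pathway, was lower, with 4.79, 4.58 and 4.58 with miR-130a, 6.08, 5.75 and 5.93 with miR-203 and 4.99, 4.97 and 5.21 with scramble and a difference of -1.27 ± 0.10, adjusted p = 5.77e-07. The sterol response letters TCACCCCAC were found in 2 of 27 member promoters (7.41%), against 0.61% of all tested genes and 0.535% of all genes.

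Fatty acid oxidation genes leaned the other way, with 4 of 24 higher, 11 lower and a median of -0.22. ACAA1, a peroxisomal thiolase, differed by -0.74 ± 0.08, adjusted p = 1.79e-05. CPT1A, the enzyme that admits fatty acids to mitochondria, was an exception with 7.13, 7.15 and 7.24 with miR-130a, 5.63, 5.86 and 5.61 with miR-203 and 7.62, 7.74 and 7.67 with scramble. Its miR-203 arrays lay far below the rest, with a difference of 1.48 ± 0.08, adjusted p = 2.72e-08, but its other bright probe set gave 0.08 and the mean of all its probe sets 0.37. ECI2 and HSD17B4, enzymes of peroxisomal oxidation, differed by 0.54 ± 0.06, adjusted p = 2.88e-05 and 0.52 ± 0.07, adjusted p = 0.000101.

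Respiratory chain and ATP synthase genes showed small differences in 1 direction: 3 of 54 were higher, 26 were lower and the median was -0.18, between -0.20 and -0.17 in the alternatives tried, where 16 to 33 genes were lower, the fewest without the third miR-130a array. The list mean was 9.08, 9.09 and 9.06 with miR-130a, 9.23, 9.24 and 9.18 with miR-203 and 9.21, 9.17 and 9.17 with scramble. NDUFA3 and NDUFB2 of complex I differed by -0.55 ± 0.08, adjusted p = 0.000143 and -0.54 ± 0.08, adjusted p = 0.000179, and SDHD of complex II by -0.53 ± 0.08, adjusted p = 0.000269 (-0.27 as the mean of its probe sets). COX6A1 (on chromosome 12), a subunit of cytochrome c oxidase, was the highest member of this list with 10.45, 10.45 and 10.40 with miR-130a, 7.97, 8.65 and 8.28 with miR-203 and 10.77, 10.82 and 10.90 with scramble. The miR-203 arrays lay below all others, and the difference was 2.13 ± 0.13, adjusted p = 8.2e-08. Against scramble COX6A1 differed by -0.40 ± 0.13, adjusted p = 0.037 with miR-130a and by -2.53 ± 0.13, adjusted p = 1.96e-08 with miR-203.

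Among ribosomal protein genes differences were small, with 0 of 35 higher, 7 lower and a median of -0.13. The 7 genes are 20% of the list, where 20.1% of all tested genes were lower and 21.1% higher. The count of lower genes ran from 2 to 17 in the alternatives tried, with 4 without the first and 2 without the third miR-130a array. RPL22 and RPL3 differed by -0.29 ± 0.07, adjusted p = 0.00517 and -0.29 ± 0.06, adjusted p = 0.00181. In glycolysis and the hypoxia response 4 of 27 were higher and 4 lower, and the higher count was 1 without the third miR-130a array and 2 without the second or any 1 miR-203 array. HK2, hexokinase 2, differed by -0.59 ± 0.12, adjusted p = 0.0016 (-0.35 as the mean of its probe sets), PFKM, phosphofructokinase, by -0.57 ± 0.09, adjusted p = 0.000248, and NDRG1, a hypoxia-induced gene, by 0.59 ± 0.11, adjusted p = 0.0011.

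Growth factor signalling was mixed. Of 23 tested EGFR, RAS and MAPK components 5 were higher and 7 were lower, where 21.1% of all tested genes were higher and 20.1% lower. The higher count was 3 without the first or second miR-130a array and 2 without the third or the second miR-203 array. GRB2, the adaptor between receptors and RAS, measured 5.85, 5.69 and 5.78 with miR-130a, 6.67, 6.48 and 6.54 with miR-203 and 5.83, 5.78 and 5.74 with scramble. The scramble arrays were at the level of miR-130a, miR-203 was above both, and the difference was -0.79 ± 0.08, adjusted p = 8.47e-06. ERBB3, a receptor of neuregulin, differed by -0.72 ± 0.09, adjusted p = 3.98e-05 (-0.38 as the mean of its probe sets) and GHR, the growth hormone receptor, by 0.67 ± 0.13, adjusted p = 0.00146. Of 17 genes induced by ERK 6 were higher and 2 were lower: JUN, a subunit of AP-1, differed by 0.91 ± 0.08, adjusted p = 3.18e-06, and DUSP2, a nuclear phosphatase of MAP kinases, by -1.19 ± 0.12, adjusted p = 7.4e-06. Among 24 PI3K, AKT, FOXO and mTOR genes 4 were higher and 6 were lower, PIK3CB, a catalytic subunit of PI3K, by -0.91 ± 0.09, adjusted p = 6.18e-06 and DEPTOR, an inhibitor of mTOR, by -0.88 ± 0.14, adjusted p = 0.000214. EIF4E, the cap-binding factor, differed by -0.50 ± 0.15, adjusted p = 0.0204, and lost its call in 5 alternatives, with adjusted p up to 0.0915 and a difference of -0.28 without the third miR-203 array.

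Targets described for each microRNA were counted next. Of 27 miR-130a targets on the arrays 13 were tested: 1 was higher with miR-130a, 3 were lower and 9 did not pass, so that 30.8% passed, against 41.2% of all tested genes. The median of -0.17 was 0.01 with the mean of probe sets. Without the first miR-203 array 5 were lower, and with array weights 4 were higher and 5 lower. ROCK1, a kinase of actomyosin contraction, measured 6.09, 5.87 and 6.02 with miR-130a, 7.25, 7.25 and 7.39 with miR-203 and 6.83, 6.81 and 6.71 with scramble. It was lowest with miR-130a and highest with miR-203, with -1.30 ± 0.08, adjusted p = 1.29e-07 between them, and differed from scramble by -0.79 ± 0.08, adjusted p = 1.76e-05 with miR-130a and by 0.51 ± 0.08, adjusted p = 0.000377 with miR-203. ATXN1, a nuclear corepressor, measured 2.78, 2.50 and 2.52 with miR-130a, 3.88, 3.35 and 3.30 with miR-203 and 3.71, 3.74 and 3.72 with scramble, with the miR-130a arrays lowest and a difference of -0.91 ± 0.14, adjusted p = 0.000179 (-0.50 as the mean of its probe sets). Only 1 of its miR-130a arrays was above the array median, so the size of this difference rests on values near the lowest value of 2.36. ACVR1, an activin and BMP receptor, differed by -0.26 ± 0.10, adjusted p = 0.0443 but lost its call in 15 alternatives, with adjusted p up to 0.171, and was -0.39 without the first and -0.17 without the third miR-203 array. IRF1, a transcription factor that interferon itself induces, was higher, by 0.58 ± 0.11, adjusted p = 0.000759.

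DICER1, the enzyme that cuts microRNA precursors and a described miR-130a target, measured 8.96, 8.82 and 8.88 with miR-130a, 8.57, 8.55 and 8.62 with miR-203 and 8.22, 7.79 and 8.12 with scramble. All miR-130a arrays were above all miR-203 arrays and both were above scramble, and the difference of 0.31 ± 0.12, adjusted p = 0.0517 did not pass (95% interval 0.05 to 0.57). It did pass in 8 alternatives, among them the fit of the 6 arrays alone (adjusted p = 0.00848). The intervals of the other members that did not pass reached from -0.76, for the inhibin subunit INHBB, to 0.50, for the BMP receptor BMPR2.

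Of 35 miR-203 targets on the arrays 21 were tested: 6 were higher with miR-130a, 0 were lower and 15 did not pass, with a median of 0.03. This is 28.6% passing, against 41.2% of all tested genes and 21.1% higher, and 2 were lower under quantile scaling or array weights. For 5 of the 6 higher genes the scramble arrays overlapped the miR-203 arrays alone, against 22.8% of all genes that passed. In those 5 the miR-203 arrays were therefore not apart from scramble, and only for LASP1 did scramble lie between. LASP1 (on chromosome 17), an actin-binding protein of focal adhesions, measured 7.86, 7.67 and 7.81 with miR-130a, 5.36, 5.79 and 5.60 with miR-203 and 7.51, 7.51 and 7.60 with scramble. The miR-203 arrays lay far below the other 6, with a difference of 2.20 ± 0.10, adjusted p = 1.78e-08 between the microRNAs, 0.24 ± 0.10, adjusted p = 0.12 for miR-130a against scramble and -1.96 ± 0.10, adjusted p = 3.41e-08 for miR-203 against scramble. BIRC5, survivin, which is also in the mitosis list, differed by 0.90 ± 0.15, adjusted p = 0.000397, ASAP1, a regulator of ARF GTPases, by 0.88 ± 0.15, adjusted p = 0.000429, and CKAP2, a spindle protein, by 0.60 ± 0.13, adjusted p = 0.00298. ABL1, a tyrosine kinase, differed by 0.36 ± 0.12, adjusted p = 0.0249 and lost its call in 6 alternatives, with adjusted p up to 0.0988 and a difference of 0.21 without the third miR-203 array. VEGFA, the endothelial growth factor, fell against scramble with both microRNAs (-0.56 ± 0.07, adjusted p = 0.000109 with miR-130a and -0.52 ± 0.07, adjusted p = 0.000112 with miR-203), and its difference between them was -0.04 ± 0.07, adjusted p = 0.725 with an interval of -0.19 to 0.12. SNAI2 and ROBO1 were not above the median on any array of 1 of the groups and have no fold.

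Among 18 tested genes of the microRNA machinery 3 were higher, or 5 without the second miR-205 array, and 3 were lower. The share that passed was 33.3%, against 41.2% of all tested genes. DROSHA, the nuclear enzyme of microRNA processing, measured 6.33, 6.36 and 6.44 with miR-130a, 5.45, 5.79 and 5.76 with miR-203 and 6.42, 6.04 and 6.11 with scramble, with a difference of 0.71 ± 0.11, adjusted p = 0.000227. AGO3, an Argonaute protein, measured 4.05, 3.88 and 3.46 with miR-130a, 4.97, 4.76 and 4.76 with miR-203 and 4.29, 3.81 and 3.69 with scramble, with all miR-203 arrays highest and a difference of -1.03 ± 0.17, adjusted p = 0.000368. PRKRA, a partner of Dicer and activator of the RNA-dependent kinase PKR, differed by -0.62 ± 0.10, adjusted p = 0.000206.

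Described targets of miR-205, which was transfected in neither group, were counted in the same way as the 2 lists above. Of 20 tested, 4 were higher and 7 were lower, or 55% passing against 41.2% of all tested genes. EZH2, the methyltransferase of the Polycomb complex, measured 5.59, 5.41 and 5.56 with miR-130a, 3.99, 4.45 and 4.53 with miR-203 and 5.34, 5.06 and 5.16 with scramble, and differed by 1.20 ± 0.14, adjusted p = 2.14e-05. PHC2, another Polycomb member, differed by -0.92 ± 0.09, adjusted p = 7.4e-06, and PHLPP2, a phosphatase of AKT, by 1.03 ± 0.12, adjusted p = 2.85e-05 (0.52 as the mean of its probe sets).

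TGF-beta and BMP signalling genes were lower in 6 of 22 cases and higher in 1 (0 without the first or second and 3 without the third miR-130a array), with a median of -0.18. Members that passed made up 31.8%, against 41.2% of all tested genes. BAMBI, a decoy receptor that dampens TGF-beta signalling, measured 7.50, 7.69 and 7.59 with miR-130a, 8.74, 8.74 and 8.66 with miR-203 and 6.84, 6.80 and 7.01 with scramble. It was highest with miR-203 and lowest with scramble, and the microRNAs differed by -1.12 ± 0.09, adjusted p = 8.25e-07. SMAD2, a signal transducer of this pathway, measured 5.94, 6.07 and 6.35 with miR-130a, 6.81, 6.82 and 6.86 with miR-203 and 6.28, 6.05 and 6.01 with scramble, with miR-203 above the others and a difference of -0.71 ± 0.10, adjusted p = 0.000147. TGFBR3, a coreceptor, and ACVR2A, an activin receptor, differed by -0.73 ± 0.12, adjusted p = 0.000374 and -0.63 ± 0.17, adjusted p = 0.00781, the second by -0.41 without the third miR-130a array.

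Actin and focal adhesion genes were higher in 15 of 43 cases and lower in 4, with a median of 0.16, LASP1 and ROCK1 lying at the 2 ends. ACTA2, given above, was also higher with miR-130a, the only 1 of 3 tested fibroblast and smooth muscle markers that passed. Its part in these counts was not tested. MYH10, a nonmuscle myosin, measured 9.19, 9.10 and 9.17 with miR-130a, 7.85, 8.001 and 7.90 with miR-203 and 8.46, 8.36 and 8.43 with scramble. Scramble lay between the microRNAs, with a difference of 1.24 ± 0.07, adjusted p = 3.59e-08. TAGLN2, an actin-bundling protein, differed by 1.22 ± 0.13, adjusted p = 8.47e-06, and its scramble arrays were at the level of miR-130a. Of 24 junction genes 6 were higher and 2 were lower, or 0 without the first miR-130a array. Passing junction genes made up 33.3%, against 41.2% of all tested genes. TJP1, the tight junction scaffold ZO-1, measured 9.04, 9.004 and 8.93 with miR-130a, 7.70, 8.06 and 7.79 with miR-203 and 8.54, 8.47 and 8.32 with scramble, with scramble between and a difference of 1.14 ± 0.09, adjusted p = 1.05e-06, and CLDN4, a claudin, and DSG2, a desmosomal cadherin, differed by 0.78 ± 0.10, adjusted p = 3.9e-05 and 0.73 ± 0.10, adjusted p = 0.000116.

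The p53 target list was balanced, with 6 of 24 higher and 7 lower, against 21.1% higher and 20.1% lower of all tested genes. ZMAT3, an RNA-binding target of p53, measured 5.29, 5.22 and 5.09 with miR-130a, 6.84, 6.67 and 6.77 with miR-203 and 5.67, 6.03 and 5.89 with scramble. Scramble lay between the microRNAs, which differed by -1.56 ± 0.11, adjusted p = 3.87e-07, the lowest value of the list. GADD45A, a stress sensor, differed by -0.73 ± 0.08, adjusted p = 1.86e-05. Of 26 oxidative stress and metal response genes 4 were higher and 6 were lower, or 3 without the third miR-130a array: catalase, CAT, differed by -0.98 ± 0.07, adjusted p = 2.68e-07 (-0.64 as the mean of its probe sets), HMOX1, which degrades haem, by -0.92 ± 0.23, adjusted p = 0.0061 (-0.58 without the first miR-203 array), and FTL, ferritin light chain, by 0.90 ± 0.08, adjusted p = 1.19e-06.

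Of 26 histone and chromatin genes 10 were higher and 5 were lower, where 21.1% of all tested genes were higher and 20.1% lower. H2AX, the histone variant marked at DNA breaks, differed by 1.09 ± 0.11, adjusted p = 8.14e-06 (0.48 as the mean of its probe sets), and SMC2, a condensin subunit, by 1.23 ± 0.17, adjusted p = 0.000104. H2BC21, a core histone gene with a polyadenylated message, went the other way with 7.63, 7.75 and 7.72 with miR-130a, 9.45, 9.11 and 9.17 with miR-203 and 7.41, 7.32 and 7.54 with scramble. All miR-203 arrays were above the other 6, and the difference was -1.54 ± 0.09, adjusted p = 8.85e-08. H2AC25, another histone gene, differed by -1.50 ± 0.12, adjusted p = 1.18e-06; whether these probe sets also measured near-identical histone genes was not tested. In the lysosome and autophagy list 8 of 30 were higher, or 5 without the first miR-130a array, and 10 were lower, CTSA, a lysosomal carboxypeptidase, by -1.19 ± 0.08, adjusted p = 1.68e-07, HEXA, a hexosaminidase, by -0.69 ± 0.11, adjusted p = 0.000395 (-0.31 as the mean of its probe sets), and GABARAPL1, an autophagosome protein, by 0.73 ± 0.10, adjusted p = 0.000123.

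The largest negative differences lay mostly outside these lists, and for several the miR-130a arrays were at the level of scramble. PTBP2 (on chromosome 1), a splicing regulator of neurons, measured 3.99, 3.77 and 3.64 with miR-130a, 5.82, 5.82 and 6.05 with miR-203 and 3.86, 3.96 and 3.70 with scramble. The miR-130a and scramble arrays overlapped, all miR-203 arrays were far above them, and the difference was -2.10 ± 0.12, adjusted p = 8.2e-08. COLEC12, a scavenger receptor, PITX1, a homeodomain factor, and GCG, which encodes glucagon, had the same order, with differences of -1.47 ± 0.12, adjusted p = 7.67e-07, -1.34 ± 0.12, adjusted p = 2.73e-06 and -1.34 ± 0.12, adjusted p = 1.69e-06.

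In a further set scramble lay between the microRNAs. ZBTB43, a zinc finger protein, measured 4.31, 4.10 and 4.46 with miR-130a, 6.18, 5.95 and 5.97 with miR-203 and 5.04, 5.02 and 4.98 with scramble, and its 3 groups were apart (-1.74 ± 0.11, adjusted p = 1.47e-07). ACKR3, a scavenging receptor of the chemokines CXCL12 and CXCL11, measured 6.73, 6.81 and 6.70 with miR-130a, 8.28, 8.31 and 8.29 with miR-203 and 7.17, 7.13 and 6.999 with scramble, with the same order and a difference of -1.55 ± 0.07, adjusted p = 8.94e-09. CAMK2N1, an inhibitor of CaM kinase II, and ATG2B, a lipid transfer protein of autophagosomes, differed by -1.47 ± 0.10, adjusted p = 1.85e-07 and -1.43 ± 0.15, adjusted p = 8.14e-06. BRDT, a bromodomain protein of the testis, was dim on all miR-130a arrays and at least 2.56-fold lower with miR-130a (adjusted p = 4.94e-07). STK26, a kinase of the Ste20 family, differed by -1.39 ± 0.12, adjusted p = 1.24e-06, and RNF7, a subunit of cullin ubiquitin ligases, by -1.34 ± 0.09, adjusted p = 1.29e-07.

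On the higher side, UGT2B28, a relative of UGT2B15 that glucuronidates steroids, measured 7.04, 7.004 and 6.89 with miR-130a, 4.95, 4.78 and 4.80 with miR-203 and 4.92, 4.63 and 4.81 with scramble. Scramble overlapped the miR-203 arrays alone, and the difference was 2.14 ± 0.11, adjusted p = 2.72e-08; whether its probe set also measured other UGT2B genes was not tested. PLAAT4, a phospholipase induced by retinoids and interferon, measured 7.64, 7.66 and 7.43 with miR-130a, 5.64, 5.22 and 5.42 with miR-203 and 3.16, 3.11 and 3.41 with scramble and was apart in all 3 groups (2.15 ± 0.11, adjusted p = 2.72e-08). CFB, complement factor B, was above the median on miR-130a arrays alone, at least 3.62-fold higher than with miR-203 (adjusted p = 8.33e-08), with a fitted difference of 1.13 as the mean of its probe sets. MDC1, a scaffold of the DNA damage response, measured 6.10, 6.004 and 5.93 with miR-130a, 3.82, 4.18 and 4.03 with miR-203 and 5.51, 5.24 and 5.24 with scramble, with scramble between and a difference of 2.00 ± 0.13, adjusted p = 1.29e-07, and its other probe set gave 0.84. APPBP2, a microtubule-associated protein, differed by 1.94 ± 0.10, adjusted p = 2.72e-08 (1.12 as the mean of its probe sets).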

How the data were processed

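Expression was measured on 12 arrays, 3 each of miR-130a, miR-203, miR-205 and scramble. The authors deposited 1 table of log2 expression values, already normalized together. The submitters' processing notes name R 2.9.0, RMA and limma; the background method is not given in the sources used here. A probe set was named when the platform annotation gave it exactly 1 symbol: 19070 had 1, 1043 several and 2164 none, and 19060 were found in the RefSeq gene table. Each gene was represented by the probe set with the highest mean.

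Group means over all 12 arrays were fitted with limma 3.58.1 in R 4.3.3 (eBayes), with adjustment over 6821 genes at a false discovery rate of 0.05. A group below the array median on all 3 arrays was treated as dim: it has only a bound, the mean of the bright group over the higher, per array, of that median and the dim value. The fit was tested on simulated data. Intervals are at 95%, and the 3 comparisons share arrays.

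Named genes were the 15 largest differences in each direction without overlap, up to 4 per list, members of the described target lists, the 8 largest in each direction with scramble between, the 5 largest shared shifts in each direction and a few fixed genes. Some of the fixed genes are not reported here, and BCL2 was below the brightness filter. The members and lists were chosen with earlier results of these data known. The seed matches planned for 3′ untranslated regions were not run. Alternatives were the 6 arrays alone, a replicate block, quantile scaling, other filters and probe set rules, array weights, a trended robust prior, removal of genes with equal values and leaving out each array.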

Additional observations from a re-analysis of the deposited data

Results flagged for a closer look

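Probe sets with several gene symbols or none were left out of the comparison, and differences appeared among them too. Of 1292 above the brightness filter, 484 (37.5%) differed between miR-130a and miR-203 by the same limma fit, 222 higher and 262 lower with miR-130a. The largest difference was that of a probe set with 3 symbols, which averaged 7.35 with miR-130a, 4.45 with miR-203 and 5.89 with scramble, a difference of 2.897. A second probe set with the same symbols differed by 2.64. On the lower side a probe set with no symbol averaged 7.92 with miR-130a, 9.37 with miR-203 and 8.18 with scramble. No gene is named from them.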

How the results depend on the processing

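Among the 155 named genes that passed, no difference changed direction in any of the 22 alternatives. This does not extend to named genes that did not pass. The 2 probe sets of CCND1, for example, gave -0.07 and 0.05. Of 35 list medians 7 changed sign in at least 1 alternative, all of them 0.17 or less in size: the NF-kB, death receptor, EGFR, PI3K, p53, lysosome and described miR-130a target lists. Where 1 array was left out, list counts of 3 or fewer moved by up to 2 genes. Such counts were, among others, those of the chemokine, NF-kB, DNA repair, described target, microRNA machinery, TGF-beta and junction lists. The count of genes that differed, 2807, ran from 2350 without the filter to 3481 with array weights, and from 2352 to 2864 when 1 array was left out. The count at 2-fold or more ran from 202, with the mean of probe sets, to 307. Under quantile scaling 2954 genes differed, 56.2% of them lower with miR-130a against 48.8%, and the median of all genes was -0.05 against -0.02. Of 155 named genes that passed, 148 passed in all alternatives that gave them a value.

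The replicate block gave 2826 genes. Deviations of same-numbered miR-130a and miR-203 arrays correlated at 0.047 to 0.097, and those of differently numbered arrays at -0.111 to 0.039. Whether same-numbered arrays share a batch was not tested. Small differences are limited by 3 arrays a group: the smallest that passed was 0.17.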
